A study of Bos taurus with 8 samples.

Results

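The aminoacyl-tRNA synthetases described here are 36 of the 28709 genes in a table of estimated RNA counts from BUTE cells, a bovine uterine epithelial line. They were chosen by gene symbol alone: the symbols for the cytosolic enzymes, and the same symbols ending in 2 for the mitochondrial enzymes. That gave 21 cytosolic and 15 mitochondrial genes. TARSL2, which also ends in 2, is the second cytosolic-type threonine enzyme and was counted as cytosolic. The table uses older symbols for the cytosolic enzymes (AARS for the gene now called AARS1, SARS for the serine enzyme SARS1). The mitochondrial enzymes EARS2 and PARS2 fall outside the symbol rule and are described with the neighbouring genes.

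BUTE cells are an immortalized line from 1 Holstein dairy cow, labelled wild type and epithelial. All cells were kept for 24 h without serum or steroids in medium free of phenol red, with insulin-like growth factor 1 (IGF1), a hormone given to stimulate glycogen synthesis. The control group (4 libraries) then received the vehicle DMSO and the other group (4 libraries) received 10 µM progesterone, each for 24 h with 50 ng/ml IGF1. Column headings name the libraries DMSO R1, R3, R7 and R9 and progesterone R1, R2, R3 and R6. The sources used here do not tie replicates to separate cultures, so p-values cover only the spread between these libraries, which may be technical.

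Each synthetase joins 1 amino acid to the tRNAs that decode it, with ATP as the energy source, and so contributes to the accuracy of translation. The fused enzyme EPRS serves both glutamate and proline. Cytosolic enzymes charge the tRNAs used by cytosolic ribosomes. Mitochondria have their own tRNAs and, for most amino acids, their own enzyme, which is encoded in the nucleus and imported; the glycine and lysine genes GARS and KARS make both forms. Many cytosolic synthetase genes are known targets of ATF4, a transcription factor that responds to a shortage of amino acids.

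Library totals ran from 23810861 to 32509786 estimated counts. DMSO R7 and R9 stood apart from the other 6 libraries: log2 CPM (CPM: counts relative to the library total, which was scaled by trimmed mean of M values) correlated at 0.992 between these 2, at 0.949 to 0.962 between them and the other 6, and at 0.983 to 0.992 among the other 6. Results are therefore given on all 8 libraries and on the 6 that are left without these 2. As a check of the label, the summed level of 6 epithelial markers was 2821 to 3073 CPM in the DMSO libraries and 1739 to 2659 CPM in the progesterone libraries. Most of it was the keratin KRT8, while the epithelial adhesion gene EPCAM was below 3 CPM in each library. Summed fibroblast markers reached 13088 to 20203 CPM with DMSO and 11829 to 13182 CPM with progesterone, led by VIM and collagen I. The collagen I gene COL1A1 was at 2046, 1928, 6554 and 5295 CPM in DMSO R1, R3, R7 and R9. With progesterone it was at 1516 to 1851 CPM. COL1A2, LUM and PDGFRA were also highest in R7 and R9, VIM was not, and DCN was lowest there. Of the epithelial markers, KRT8, KRT18 and EPCAM were highest in R7 and R9, and KRT19, KRT7 and CDH1 were lowest there. Summed immune markers were at 1.84 to 2.92 CPM with DMSO and 0.991 to 2.04 CPM with progesterone, with the leukocyte gene PTPRC at 0 in all 8. Summed endothelial markers were at 2.34 to 4.44 and 3.29 to 5.87 CPM. Smooth muscle markers, mostly ACTA2, summed to 594 to 732 and 548 to 777 CPM. What part these marker levels have in the results below was not tested. In RNA from whole cultures, a change in RNA per cell and a change in the share of cells cannot be told apart.

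With all 8 libraries, 35 of the 36 synthetase genes were abundant enough to test, and 2 passed the 0.05 threshold on the Benjamini-Hochberg adjusted p, taken over all genes in the quasi-likelihood fit of edgeR. The share was 5.71% of the genes tested here, against 2.65% of 13557 genes in all. Both were mitochondrial: WARS2, the tryptophan enzyme, rose and LARS2, the leucine enzyme, fell. Among all genes, 1.69% were called higher and 0.959% lower. Neither was called by edgeR when DMSO R7 and R9 were left out, where 8 of the 35 reached 0.05 before adjustment (22.9%, against 15.9% of all genes). On these 6 libraries DESeq2 called WARS2 and limma voom called 0 of the 35, while they called 4.13% and 0.988% of all genes. In edgeR 1.18% of 13764 genes were called on these 6 libraries, 0.995% higher and 0.182% lower. On the log2 scale the median change was -0.25 for the 20 cytosolic genes tested and 0.02 for the 15 mitochondrial genes, beside -0.01 over all genes. Leaving out R7 and R9 gave medians of -0.05 and -0.03, beside 0.01.

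**Figure D1:**
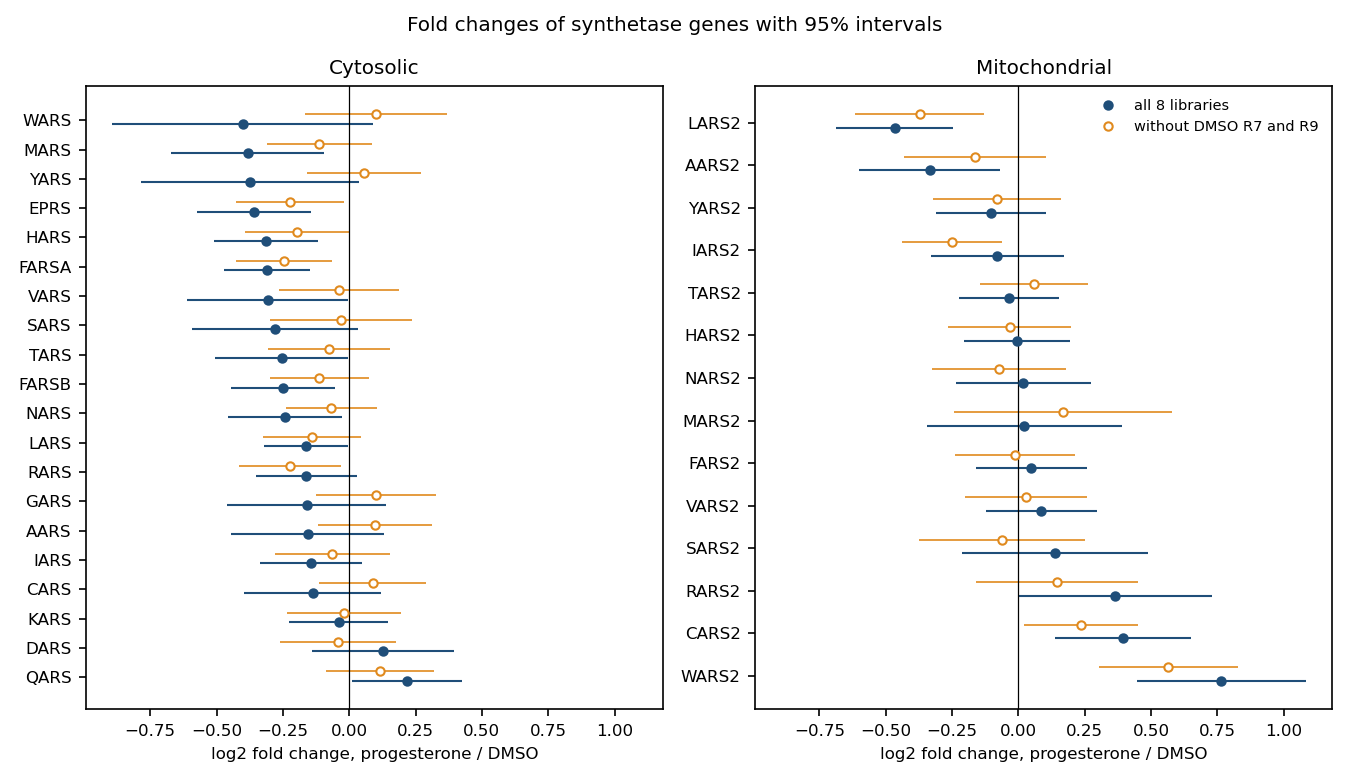
Log2 fold change of 34 of the 35 tested synthetase genes, progesterone over DMSO, with its 95% interval (edgeR), in 1 panel per compartment; filled points use all 8 libraries and open points leave out DMSO R7 and R9. Of the 20 cytosolic genes 18 lie below 0 with 8 libraries, against 51.0% of all genes, and 14 in the smaller set, against 48.0%. WARS2 lies highest and LARS2 lowest of the mitochondrial genes in both.

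WARS2 (Entrez Gene 532903, chromosome 3) charges the mitochondrial tRNA for tryptophan. It was at 11.6, 11.7, 8.52 and 8.36 CPM in DMSO R1, R3, R7 and R9, and at 17.2, 17.9, 16.2 and 16.998 CPM in progesterone R1, R2, R3 and R6. Each progesterone library was above each DMSO library, and within DMSO the libraries R7 and R9 were the lowest. The mean rose 1.70-fold from 10.0 ± 1.85 to 17.1 ± 0.695 CPM (SD, n = 4), with a log2 fold change of 0.77 ± 0.14 SE (edgeR adjusted p = 0.0303). On the 6 libraries left without R7 and R9 its log2 fold change was 0.57 ± 0.12 SE (edgeR adjusted p = 0.0511). Leaving out R1 or R3 kept the call (adjusted p = 0.0167 and 0.0303 in edgeR), while leaving out any 1 of the other 6 libraries gave an adjusted p between 0.0780 and 0.0991 and log2 fold changes from 0.69 to 0.79.

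LARS2 (504609, chromosome 22), the mitochondrial leucine enzyme, was at 36.1, 36.1, 38.6 and 41.6 CPM in the DMSO libraries, in the same order as above. In the progesterone libraries it was at 30.4, 25.1, 25.5 and 29.5 CPM, each below the lowest DMSO value. The mean fell 1.38-fold, from 38.1 ± 2.65 to 27.6 ± 2.73 CPM (SD, n = 4), with a log2 fold change of -0.47 ± 0.10 SE (edgeR adjusted p = 0.0425). On the 6 libraries it was -0.37 ± 0.11 SE (edgeR adjusted p = 0.138). The call also ended when R7, R9 or any progesterone library was left out, with adjusted p between 0.0793 and 0.143 in edgeR and log2 fold changes from -0.51 to -0.40.

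**Figure D2:**
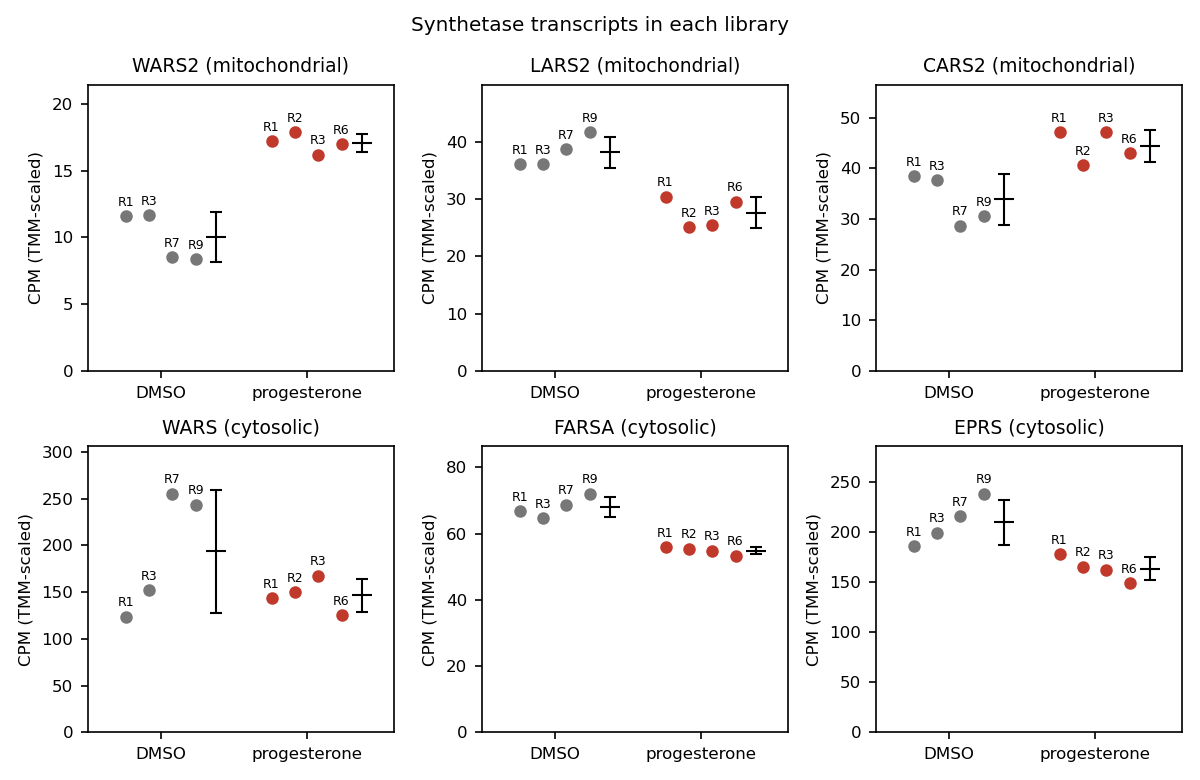
Level in CPM of 3 mitochondrial (top) and 3 cytosolic (bottom) synthetase genes in each library, with axes starting at 0; points are libraries, labelled by number, and black bars are group means ± SD (n = 4). For WARS2, LARS2, CARS2, FARSA and EPRS the groups do not overlap, while for WARS the DMSO libraries R7 and R9 lie above all 6 others.

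The other 13 mitochondrial genes did not pass in edgeR or limma voom, and DESeq2 called CARS2 among them. CARS2 (506598, chromosome 12), the mitochondrial cysteine enzyme, was at 38.5, 37.7, 28.7 and 30.6 CPM with DMSO and at 47.1, 40.6, 47.1 and 42.9 CPM with progesterone. Its groups did not overlap, and R7 and R9 were again the lowest. The log2 fold change was 0.39 ± 0.12 SE (edgeR adjusted p = 0.0815), and 0.24 without R7 and R9 (0.271). In DESeq2 on 8 libraries its adjusted p was 0.0273, in a fit that called 13.5% of all genes. RARS2, the mitochondrial arginine enzyme, was at 38.5, 31.8, 22.7 and 26.6 CPM with DMSO and at 40.7, 41.4, 31.0 and 41.1 CPM with progesterone. Here progesterone R3 fell below DMSO R1 and R3, so the groups overlapped. Its log2 fold change was 0.37 ± 0.16 SE, and 0.15 on the 6 libraries.

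AARS2, the mitochondrial alanine enzyme, was at 28.8, 29.6, 36.2 and 35.6 CPM with DMSO and at 30.2, 23.1, 26.0 and 23.9 CPM with progesterone. Progesterone R1 lay above DMSO R1 and R3. The log2 fold change was -0.33 ± 0.12 SE (edgeR adjusted p = 0.120), and -0.16 without R7 and R9. YARS2, the mitochondrial tyrosine enzyme, was at 25.8, 24.3, 24.0 and 26.8 CPM with DMSO and at 22.9, 25.6, 21.5 and 23.7 CPM with progesterone, with overlapping groups and a log2 fold change of -0.10, or -0.08 on 6 libraries.

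Another 8 mitochondrial genes had log2 fold changes between -0.08 and 0.14. Log2 fold changes were 0.14 for the serine enzyme SARS2 and 0.09 for the valine enzyme VARS2. They were -0.08 for the isoleucine enzyme IARS2, 0.05 for the phenylalanine enzyme FARS2 and -0.03 for the threonine enzyme TARS2. NARS2 (asparagine) and MARS2 (methionine) were each at 0.02, and HARS2 (histidine) at -0.005. The 95% intervals of these 8 genes lay within -0.35 and 0.49, which leaves room for changes of that size. On the 6 libraries the signs of SARS2 (-0.06), FARS2 (-0.01), NARS2 (-0.07) and TARS2 (0.06) were opposite, none of them called. VARS2 was then at 0.03, MARS2 at 0.17 and HARS2 at -0.03. IARS2 had -0.25 in that comparison (edgeR adjusted p = 0.187). It was at 183, 179.8, 142 and 134 CPM with DMSO and at 154, 158, 140.4 and 152 CPM with progesterone, so that the progesterone libraries lay below DMSO R1 and R3 and mostly above R7 and R9.

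None of the 20 cytosolic genes tested passed in edgeR, where 10 reached 0.05 before adjustment, 9 of them lower with progesterone and QARS higher. Over all genes 26.8% reached 0.05 before adjustment, made up of 14.5% lower and 12.3% higher, against 9 of 20 lower and 1 of 20 higher here. DESeq2 called FARSA, EPRS and HARS lower, 3 of 20, in a fit that called 6.95% of all genes lower, and limma voom called 0 of the 20 and 2.04% of all genes. The groups did not overlap at 6 of the 20, each lower with progesterone (30.0%), against 8.22% of all genes lower and 7.95% higher without overlap. DMSO R7 and R9 take part in these counts. Without them 4 of the 20 reached 0.05 before adjustment (against 15.9% of all genes), all lower, and edgeR, DESeq2 and limma voom each called 0. On those 6 libraries the groups did not overlap at 7 of the 20, each lower (35.0%), against 12.7% of all genes lower and 14.0% higher.

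The alpha and beta subunits of the cytosolic phenylalanine enzyme were both lower in each progesterone library than in each DMSO library. FARSA (522024, chromosome 7) was at 66.7, 64.7, 68.7 and 72.0 CPM with DMSO and at 55.9, 55.5, 54.9 and 53.4 CPM with progesterone. Its libraries varied little within a group, 68.0 ± 3.13 and 54.9 ± 1.10 CPM (SD, n = 4). The log2 fold change was -0.31 ± 0.07 SE, just outside the threshold (edgeR adjusted p = 0.0520), and -0.25 ± 0.08 SE without R7 and R9 (0.176). FARSB was at 67.6, 70.0, 78.1 and 84.0 CPM with DMSO and at 65.9, 63.1, 60.3 and 62.7 CPM with progesterone. Its log2 fold change was -0.25 ± 0.09 SE, and -0.11 without R7 and R9. The table also lists a pseudogene of FARSB, LOC509118, which was at 12.2 ± 1.62 and 8.66 ± 0.855 CPM; how reads shared by the copies were assigned is not stated, so FARSB is uncertain.

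Of 8 cytosolic synthetases that join the multisynthetase complex, an assembly of cytosolic synthetases on scaffold proteins, 0 passed in edgeR. Before adjustment 4 of the 8 reached 0.05, against 26.8% of all genes. DESeq2 called EPRS of these and limma voom none. Their median log2 fold change was -0.15, and -0.09 without R7 and R9. EPRS (538357, chromosome 16), a fused enzyme for glutamate and proline, was at 186, 199, 216 and 238 CPM with DMSO and at 178, 165, 162 and 149 CPM with progesterone. The groups did not overlap, with a log2 fold change of -0.36 ± 0.10 SE (edgeR adjusted p = 0.0717), and -0.22 without R7 and R9. MARS, the methionine enzyme, was at 104, 118, 150.5 and 158 CPM with DMSO and at 99.8, 104, 107 and 95.9 CPM with progesterone. Its DMSO R1 lay among the progesterone libraries, and its log2 fold change moved from -0.38 ± 0.13 SE to -0.11 without R7 and R9.

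LARS, the cytosolic leucine enzyme, was at 99.4, 97.1, 96.2 and 103 CPM with DMSO and at 91.9, 90.1, 88.9 and 82.4 CPM with progesterone. The groups did not overlap and R7 and R9 did not stand apart; the log2 fold change was -0.16 ± 0.07 SE, and -0.14 without these 2. QARS, the glutamine enzyme, was at 131, 122.6, 109 and 106 CPM with DMSO and at 148, 131, 140.4 and 125 CPM with progesterone, so it overlapped between groups and was lowest in R7 and R9. Its log2 fold change was 0.22 ± 0.09 SE (edgeR adjusted p = 0.173), and 0.12 without them. The other complex members did not pass, with log2 fold changes of -0.16 for RARS (arginine), -0.14 for IARS (isoleucine), 0.13 for DARS (aspartate) and -0.04 for KARS. Without R7 and R9 they were -0.22 for RARS, -0.06 for IARS, -0.04 for DARS and -0.02 for KARS.

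Of the 12 cytosolic genes tested outside the complex, all had a negative log2 fold change with 8 libraries, against 51.0% of all genes. Their median was -0.27. On the 6 libraries 5 were positive and 7 negative, with a median of -0.03, while 48.0% of all genes were negative. HARS (510937, chromosome 7), the histidine enzyme, was at 66.6, 67.9, 74.0 and 80.2 CPM with DMSO and at 61.3, 54.8, 61.0 and 55.2 CPM with progesterone. These groups did not overlap. HARS had a log2 fold change of -0.31 ± 0.09 SE on 8 libraries (edgeR adjusted p = 0.0747), or -0.20 on 6. NARS, the asparagine enzyme, was at 144, 143, 168 and 186 CPM with DMSO and at 137, 135, 136 and 134 CPM with progesterone. All DMSO values were higher, R7 and R9 most so, and the log2 fold change moved from -0.24 ± 0.10 SE to -0.07 without them.

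For the other genes outside the complex the log2 fold change moved close to or past 0 when DMSO R7 and R9 were left out. WARS (281576, chromosome 21), the cytosolic tryptophan enzyme, was at 124, 152, 255 and 243 CPM with DMSO and at 143, 150.1, 167 and 125 CPM with progesterone. DMSO R1 and R3 lay within or below the progesterone range and R7 and R9 above it. Its log2 fold change was -0.40 ± 0.22 SE (edgeR adjusted p = 0.265), and 0.10 when these 2 were left out. On 8 and then on 6 libraries the log2 fold change was -0.37 and 0.06 for the tyrosine enzyme YARS, -0.31 and -0.04 for the valine enzyme VARS, and -0.28 and -0.03 for the serine enzyme SARS. They were -0.25 and -0.07 for the threonine enzyme TARS, -0.16 and 0.10 for the alanine enzyme AARS, -0.16 and 0.10 for GARS, and -0.14 and 0.09 for the cysteine enzyme CARS. None of these 8 passed in edgeR in either comparison.

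TARSL2, the only synthetase gene below the filter, was at 0.137, 0.331, 0.679 and 0.681 CPM with DMSO and at 0.0611, 0.119, 0.211 and 0.124 CPM with progesterone. These levels rest on few counts per library, overlap between the groups and were not tested.

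The 2 enzyme folds of the synthetases are called class I and class II. EPRS holds both and was left out of this comparison. Among cytosolic genes the median log2 change was -0.16 for 9 of class I and -0.25 for 10 tested of class II, and on 6 libraries -0.04 and -0.06. In mitochondria the medians were 0.05 for 8 class I genes, which include WARS2 and LARS2, and 0.02 for 7 class II genes, and on 6 libraries 0.09 and -0.06. The differences between the classes were not tested.

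Within the DMSO group, the cytosolic and mitochondrial genes took opposite places in R7 and R9. Both libraries were above both R1 and R3 at 14 of 20 cytosolic genes (70.0%), against 35.1% of all genes tested, and below both at QARS and DARS. Both were below R1 and R3 at 10 of 15 mitochondrial genes (66.7%), against 34.4% of all genes, and above both at 4. The summed level of the cytosolic genes was 2425, 2661, 3083 and 3191 CPM in DMSO R1, R3, R7 and R9 and 2484, 2432, 2613 and 2324 CPM in the progesterone libraries. That of the mitochondrial genes was 559, 552, 482.4 and 482.5 CPM with DMSO and 544, 527, 511 and 515 CPM with progesterone. On both sums the progesterone libraries were closer to DMSO R1 and R3 than R7 and R9 were. These libraries were set apart by their overall profile, and no test between them was made.

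**Figure D3:**
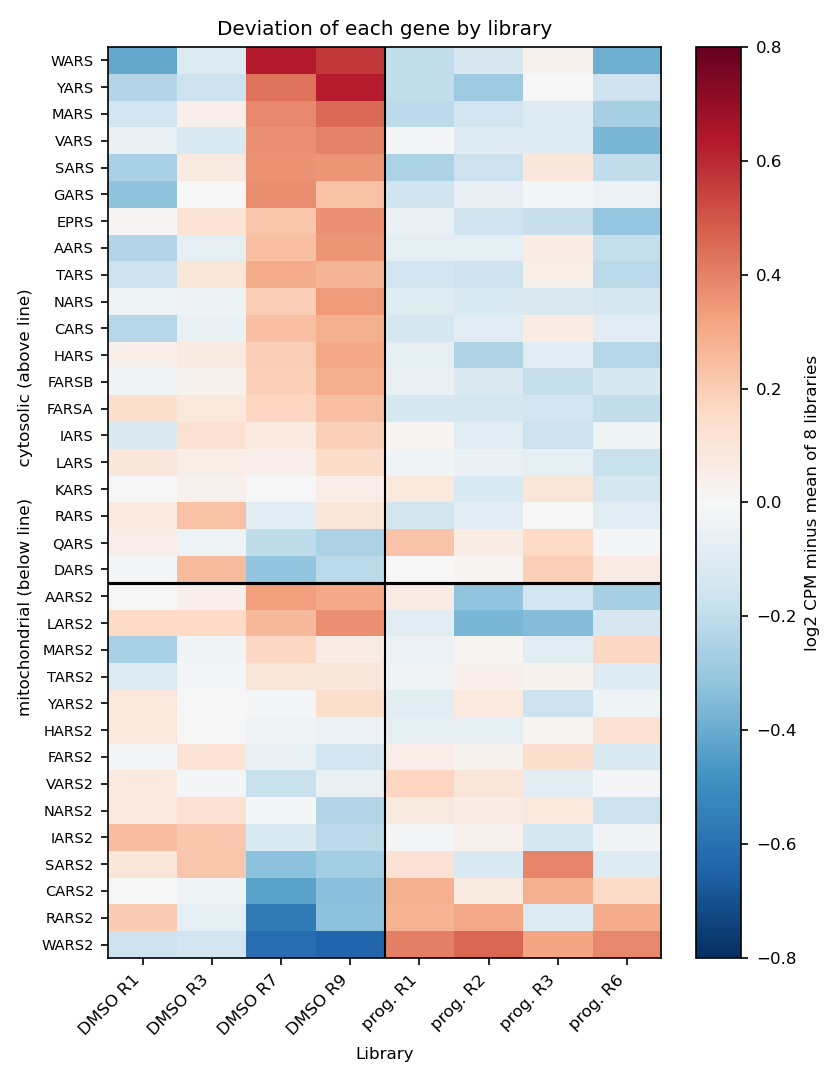
Log2 CPM of 34 of the 35 tested synthetase genes (rows) in each library (columns) minus its mean over the 8 libraries, with red above and blue below the mean; genes are sorted by their sum in DMSO R7 and R9 within each compartment. R7 and R9 are both above R1 and R3 at 14 of 20 cytosolic genes and, of the 15 mitochondrial genes tested, both below at 10.

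The ratio of the cytosolic to the mitochondrial gene for the same amino acid is free of library scaling. Its size depends on transcript length, so only its change between libraries is read here. There were 16 such pairs for 15 amino acids, FARS2 being paired with each phenylalanine subunit. The mean log2 ratio was lower with progesterone in 14 pairs over 8 libraries and in 9 pairs over 6, with a median change of -0.30 and -0.08. The groups did not overlap in 4 pairs: lower for tryptophan, methionine and for FARSA over FARS2, and higher for leucine. WARS2, LARS2 and FARSA were already without overlap as single genes, as were 16.2% of all genes tested. The share among ratios of other genes was not computed.

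For tryptophan, the ratio WARS/WARS2 was 10.7, 13.0, 30.0 and 29.1 in DMSO R1, R3, R7 and R9 and 8.33, 8.39, 10.3 and 7.37 in the progesterone libraries. R7 and R9 were far above the rest, and R1 and R3 still above each progesterone library, R1 narrowly. The mean log2 ratio changed by -1.12 on 8 libraries and by -0.46 on 6. For leucine, LARS/LARS2 was 2.75, 2.69, 2.49 and 2.48 with DMSO and 3.02, 3.60, 3.49 and 2.80 with progesterone, a change of 0.30 and, without R7 and R9, of 0.24. Both leucine genes were lower with progesterone, LARS2 by more. No test was made of the pairs, which share their libraries.

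**Figure D4:**
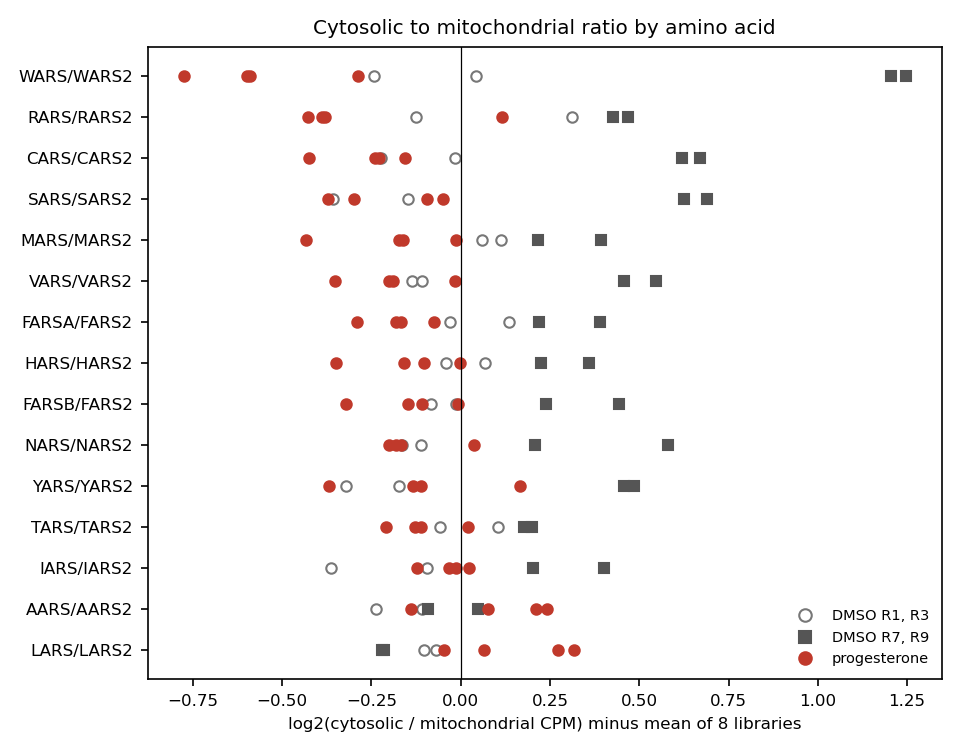
Log2 ratio of cytosolic to mitochondrial CPM for 15 of the 16 gene pairs and each library, minus the pair's mean over the 8 libraries; open circles are DMSO R1 and R3, squares DMSO R7 and R9, and red circles the progesterone libraries. The squares lie to the right for most pairs, furthest for WARS/WARS2, and the red circles lie right of all DMSO libraries only for LARS/LARS2.

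Of 30 other genes that act with the synthetases or respond to amino acid supply, 1 (3.33%) fell and 29 did not pass in edgeR, which called 2.65% of all genes. Before adjustment 7 of the 30 reached 0.05 (23.3%, against 26.8% of all genes). Without R7 and R9 it was 8 of the 30 (26.7%, against 15.9%). TRNT1, which adds the CCA end that every tRNA needs before it can be charged, in nucleus, cytosol and mitochondria, was at 32.0, 35.7, 36.8 and 38.7 CPM with DMSO and at 26.9, 25.9, 25.9 and 25.1 CPM with progesterone. Each progesterone library was below each DMSO library. TRNT1 fell by 0.46 ± 0.09 SE in log2 units, with an adjusted p of 0.0325 in edgeR, and was at -0.37 without R7 and R9, where it did not pass in edgeR (0.0966) or limma voom but was called by DESeq2. The edgeR call was also lost when R7, R9 or any progesterone library was left out.

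In the group that makes mitochondrial glutaminyl-tRNA by amidation or formylates the initiator tRNA (4 genes), 0 passed in edgeR, 1 reached 0.05 before adjustment, DESeq2 called QRSL1 and limma voom 0. QRSL1, the catalytic subunit of the amidotransferase, was at 23.8, 22.7, 29.2 and 31.8 CPM with DMSO and at 20.9, 20.7, 19.7 and 19.3 CPM with progesterone. The groups did not overlap, and the log2 fold change was -0.41 ± 0.12 SE on 8 libraries (edgeR adjusted p = 0.0815), or -0.19 on 6. MTFMT, the formyltransferase, was at -0.16 and GATC, another amidotransferase subunit, at -0.15 on the log2 scale, and at -0.07 and 0.11 on 6 libraries. On these 6 the group gave 0 calls in edgeR, DESeq2 and limma voom. In edgeR 1 gene, GATB, reached 0.05 before adjustment (-0.26), against 15.9% of all genes. The mitochondrial synthetases outside the symbol rule had log2 fold changes of -0.21 ± 0.09 SE (EARS2, glutamate, edgeR adjusted p = 0.178, groups without overlap) and 0.07 (PARS2, proline), or -0.25 and 0.14 on 6 libraries.

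Of 4 genes for enzymes that remove wrong amino acids from tRNA, 0 passed in edgeR and 3 reached 0.05 before adjustment (against 26.8% of all genes). DESeq2 called AARSD1 lower and limma voom called 0. Log2 fold changes were -0.31 ± 0.09 SE for AARSD1 (edgeR adjusted p = 0.0782), 0.50 ± 0.17 SE for PRORSD1 (0.109) and 0.35 ± 0.15 SE for DTD1 (0.163). On 6 libraries they were -0.18, 0.46 and 0.15, and 0 of the 4 genes reached 0.05 before adjustment in edgeR. The scaffold genes of the multisynthetase complex were at 0.001 (AIMP1), -0.15 (AIMP2) and -0.14 (EEF1E1), 0 of 3 at 0.05 before adjustment and none called by edgeR, DESeq2 or limma voom. On 6 libraries they were 0.28, which reached 0.05 before adjustment but was not called by edgeR, -0.12 and 0.01. None of 3 genes of the selenocysteine route passed or reached 0.05 before adjustment in edgeR on 8 libraries, and DESeq2 and limma voom called 0. SEPSECS, which makes selenocysteinyl-tRNA, was at -0.14, the kinase PSTK at 0.20 and the elongation factor EEFSEC at 0.16. On 6 libraries they were -0.18, 0.09 and 0.42, of which EEFSEC reached 0.05 before adjustment (edgeR adjusted p = 0.165) and none was called by the 3 tools. The elongation factor EEF1A1, which carries charged tRNA to the ribosome and has many copies in the genome, had 0.22 ± 0.10 SE (edgeR adjusted p = 0.183) and is uncertain for that reason. The tRNA exporter XPOT had -0.09, and on 6 libraries these 2 were at 0.18 and 0.14.

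The genes of the amino acid stress response (10) gave 0 calls in edgeR, with 0 at 0.05 before adjustment, and DESeq2 and limma voom called 0. Of the 10, 8 were positive on the 6 libraries, against 52.0% of all genes, and edgeR called 0. Before adjustment 3 of the 10 reached 0.05, all higher, against 15.9% of all genes, 9.77% higher. ATF4 itself was at 334, 474, 577 and 551 CPM with DMSO and at 428, 561, 649 and 552 CPM with progesterone, so R1 was the lowest library of each group. Its log2 fold change was 0.18 ± 0.18 SE on 8 libraries (edgeR adjusted p = 0.539), or 0.45 on 6. TRIB3, a pseudokinase target of ATF4, was at 0.32 and, without R7 and R9, at 0.56, where DESeq2 alone called it. SESN2, an inhibitor of mTORC1 signalling, was at -0.34 and -0.01 in these 2 comparisons. The cystine transporter SLC7A11 was at 5.70, 8.15, 25.6 and 21.1 CPM with DMSO and at 6.51, 8.24, 6.85 and 11.2 CPM with progesterone, highest in R7 and R9. The median deviation of the 10 genes from their mean over libraries was -0.43, -0.09, 0.18 and 0.23 (log2) in DMSO R1, R3, R7 and R9, and -0.26, -0.01, 0.05 and 0.17 in the progesterone libraries. For the cytosolic synthetases it was -0.05, 0.04, 0.21 and 0.29, and -0.09, -0.12, -0.01 and -0.17. Both medians rose in the order DMSO R1, R3, R7 and R9. Among the progesterone libraries, R6 was highest for the stress genes and lowest for the synthetases. The relation of the 2 sets was not tested.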

How the data were processed

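Poly(A) RNA libraries came from a stranded Illumina kit, per the labels' protocols. The authors deposited 1 table, read here as estimated counts per gene; its name gives length normalization, which the values neither show nor exclude. Salmon 1.4.0, bcl2fastq and the build ARS-UCD1.2 are listed without roles, per the submitters' processing notes; the step from transcripts to genes is not stated in these sources. Chromosomes are the table's, and all 36 identifiers were found in the RefSeq gene table (another assembly, used for names only). No sequences are printed.

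Columns were assigned to groups by name. No libraries looked like 1 library deposited in duplicate (chi-square per degree of freedom of 14.2 or more within groups). Counts were rounded, filtered with filterByExpr, scaled by TMM and tested between progesterone and DMSO with edgeR 4.0.16 (quasi-likelihood, robust, two-sided; R 4.3.3), adjusting over all genes at 0.05. SE is the log2 fold change divided by the square root of F. The fitting script was tested on simulated data.

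Members, lists, tests and alternatives were chosen with earlier results of these data known. All members but 1 are named; that gene stayed in the fits and counts and is not reported here by itself. Library values are given for members past the threshold, for the 8 cytosolic and 6 mitochondrial genes with the smallest p, and, chosen after values were seen, for WARS, IARS2, TARSL2, TRNT1, QRSL1, SLC7A11 and ATF4; LOC509118 and GATB were also named then. Of each neighbouring list, up to 3 genes with the smallest p are named, and the marker genes were chosen to check the label. Alternatives were other scaling (DESeq2 size factors, library size), other filters, DESeq2 1.42.0, limma voom 3.58.1, left-out libraries and a column-number block. DESeq2 and voom without R7 and R9 were added after the data were seen.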

Additional observations from a re-analysis of the deposited data

Results flagged for a closer look

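Libraries far from the rest of their group were found at 2 of 70 groups of 4 (35 genes in each treatment), while chance flags about 1 in 20 groups. RARS2 was at 31.0 CPM in progesterone R3, against 40.7 to 41.4 CPM in the other progesterone libraries; without this library its log2 fold change was 0.46 in place of 0.37 and still did not pass (edgeR adjusted p = 0.171). NARS2 was at 17.1 CPM in progesterone R6, against 20.1 to 20.4 CPM in the others; without it the log2 fold change was 0.08 in place of 0.02.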

How the results depend on the processing

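With 2 members past the threshold in the planned fit, the count was 1 without a filter (LARS2 lost, adjusted p = 0.0565 in edgeR), 3 with a mean of at least 1 CPM, 6 with DESeq2, and 0 without DMSO R7 and R9. With these 2 left out DESeq2 called 1 (WARS2) and limma voom 0. Leaving out 1 library gave 0 to 9 members: 9 without DMSO R1, 3 without DMSO R3 and 0 without any other. Over all genes, 359 became 1830 with DESeq2, 162 without R7 and R9, and 42 to 1782 when 1 library was left out. The cytosolic median moved to -0.0528 without R7 and R9; other scaling and filters kept it between -0.25 and -0.22. The cause of these shifts was not tested.

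Column numbers 1 and 3 occur in both groups. Same-numbered libraries deviated together across genes (correlations 0.226 and 0.210), but 2 pairs do not show that the numbers pair the cultures. The column number as a replicate block gave a fit that rests on these 4 libraries. It called 2531 of 13557 genes and 7 of 35 members, shares of similar size. The cytosolic median was then -0.0211. These members were WARS2, CARS2 and QARS, higher, and LARS2, IARS2, FARSA and RARS, lower.

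Signs turned for uncalled genes. The log2 fold change left when R7 and R9 were dropped was 0.1011 for WARS, 0.0553 for YARS, 0.1007 for GARS, 0.0961 for AARS, 0.0886 for CARS, -0.0426 for DARS, -0.0609 for SARS2, -0.0738 for NARS2, -0.0133 for FARS2, 0.0588 for TARS2, 0.2546 for SLC7A11, 0.105 for GATC, 0.0071 for EEF1E1 and 0.1376 for XPOT. With the replicate block it was 0.0111 for SARS, 0.0107 for XPOT, 0.1759 for WARS, 0.1021 for YARS, 0.0984 for CARS, 0.0798 for GARS, -0.0234 for NARS2, 0.0297 for VARS, 0.073 for KARS, -0.0261 for DARS, 0.146 for AARS, 0.0608 for TARS2, 0.0492 for GATC and -0.0937 for PSTK. It was 0.0223 for HARS2 without a filter and -0.0009 for AIMP1 with a mean of at least 1 CPM. Leaving out 1 library gave -0.0508 to 0.0774 for NARS2, -0.0792 to 0.0111 for KARS, -0.0529 to 0.0855 for MARS2, -0.0456 to 0.039 for HARS2, -0.0131 to 0.1806 for PARS2 and -0.0825 to 0.1627 for AIMP1. Among the members, TARSL2 alone was too low to test.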
